A study of Mus musculus with 2 samples.

Results

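Levels of 9 heat shock genes were followed across the cell types of the embryonic mouse pancreas. The members were chosen by name, as the rows Hsp90aa1, Hsp90ab1, Hspa8, Hspa1a, Hspa1b, Dnajb1, Hsph1, Hspe1 and Hspd1 present in both deposited count tables, and all 9 were found among 25507 gene rows. Although the set is called cytosolic, Hspd1 (Hsp60) and Hspe1 (Hsp10) encode the chaperonin of the mitochondrial matrix, so only the other 7 encode cytosolic proteins. Heat shock proteins bind unfolded or partly folded proteins and use cycles of nucleotide exchange to help them fold. Hsp90 matures clients such as kinases and steroid receptors, Hsp70 handles newly made and damaged chains, and Hsp40 and Hsp110 proteins start and reset the Hsp70 cycle. Some of these genes are expressed at all times, and others are induced by the factor Hsf1 through heat shock elements in their promoters, also when a tissue is dissociated into single cells.

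The cells were wild-type mouse pancreas at E14.5, flow-sorted for low and high Ngn3eGFP, a green fluorescent reporter of Neurog3, the transcription factor that starts endocrine differentiation. They were profiled in 2 inDrop libraries, a droplet method in which RNA of 1 cell shares a barcode and copies of 1 RNA share a molecular tag, so that tags (UMIs) count molecules. Neither the sort gate of each cell nor the number of embryos behind a library is given in the sources used here, no treated or mutant group is compared, and both libraries carry the same genotype and stage. Library 1 held 1910588 UMIs in 535 barcodes and library 2 held 3425983 UMIs in 1100 barcodes, with 3 barcode sequences present in both. After filters on depth, gene number, mitochondrial UMIs and doublets, 516 and 1077 cells remained, with a median of 3232.5 and 2855 UMIs per cell.

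Cells were grouped by the raw UMIs of marker genes, which were then left out of all tests. Spp1 trunk cells (Spp1, a marker of the ductal trunk epithelium, at 3 or more UMIs, with Neurog3 and Chgb at most 2) numbered 105 in library 1 and 211 in library 2. Neurog3-high cells (5 or more Neurog3 UMIs, at most 2 of Chgb) numbered 82 and 132, and Chgb-high cells (5 or more UMIs of the endocrine granule gene Chgb, at most 2 of Neurog3) numbered 78 and 115. Ins-high cells (Ins1 plus Ins2 at 20 or more) numbered 39 and 100, and Gcg-positive cells (Gcg at 5 or more) numbered 29 and 56. Groups with few cells in library 1 were Cpa1-high (Cpa1 at 5 or more, a tip and acinar gene, 9 and 86 cells), Csf1r-positive (Csf1r at 2 or more, a macrophage gene, 7 and 35 cells) and cells with at least 3 UMIs of both Neurog3 and Chgb (9 and 16 cells). Trunk, Neurog3-high and Chgb-high cells, and those with both Neurog3 and Chgb, also had at most 9 UMIs of Ins1 plus Ins2 and 2 of Gcg. A further 157 and 322 cells met none of these rules and 1 and 4 cells met more than 1 rule. The labels call the cells islet cells, whereas 316 of the 1593 kept cells were trunk cells, 95 were Cpa1-high and 42 were Csf1r-positive. Marker lists that hold none of the grouping genes were summed in each group. The summed level of 7 macrophage genes was 5442 and 5434 CPM (UMIs of a gene over all UMIs of the group, scaled to a fixed total) in Csf1r-positive cells and at most 169.6 CPM in every other group. The summed beta cell list was 6547 and 8825 CPM in Ins-high cells, with Mafa at 0 UMIs in both libraries, and it was 1065 and 3120 CPM in Gcg-positive cells and 1942 and 2492 CPM in Chgb-high cells. Of this list Iapp was 3334 and 5237 CPM in Ins-high cells and 585 and 2599 CPM in Gcg-positive cells. The summed alpha cell list was 8109 and 6410 CPM in Gcg-positive cells, 3276 and 2702 CPM in Ins-high cells and 2814 and 3117 CPM in Chgb-high cells. Summed red blood cell genes reached at most 17.5 CPM in any group.

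Promoter sequence was available for 6 of the 9 members in the RefSeq table of build GRCm38.p6, which gives 250 bases before and 50 after each transcript start. The windows were searched on both strands for inverted repeats of the heat shock element unit. Matches of 2 units were GAANNTTC or TTCNNGAA, matches of 3 units were GAANNTTCNNGAA or TTCNNGAANNTTC, and matches of 4 units were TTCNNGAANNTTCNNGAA or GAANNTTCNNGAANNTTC, so that every longer match contains shorter ones. Of 32851 windows of all genes, 15.1% held a 2-unit match, 0.603% a 3-unit match and 0.0244% a 4-unit match. The stretch before Hspe1 is shown because its window is 1 of 8 in the table with a 4-unit match, at bases -89 to -72 from the start, and because 285 bases of its window are also the window of the second annotated start of Hspd1, which runs the other way. The stretches before Hspa1a and Hspa1b are shown because they hold the same letters. Capitals mark the matched element.
Hspe1, chr1:55088029-55088148, plus strand: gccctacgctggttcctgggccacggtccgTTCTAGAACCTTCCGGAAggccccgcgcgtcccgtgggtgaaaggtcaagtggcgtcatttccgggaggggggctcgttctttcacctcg
Hspa1a, chr17:34972171-34972290, minus strand: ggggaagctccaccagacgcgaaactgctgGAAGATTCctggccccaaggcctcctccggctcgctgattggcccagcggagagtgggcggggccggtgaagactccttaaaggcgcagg
Hspa1b, chr17:34959253-34959372, minus strand: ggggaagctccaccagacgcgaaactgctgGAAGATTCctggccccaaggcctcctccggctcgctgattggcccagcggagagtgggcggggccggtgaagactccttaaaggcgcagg

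Over the full windows, Hspa1a and Hspa1b were 98.7% identical, and over 2692 aligned bases of their transcripts they were 95.1% identical. Hsph1 held a 3-unit match just inside the transcript at each of its annotated starts and a separate 2-unit match upstream of each. Neither window of Dnajb1 held a match, nor did the window of the first annotated Hspd1 start, which says only that these letters are not in those windows. Windows of Hsp90aa1, Hsp90ab1 and Hspa8 were not used here.

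**Figure D1:**
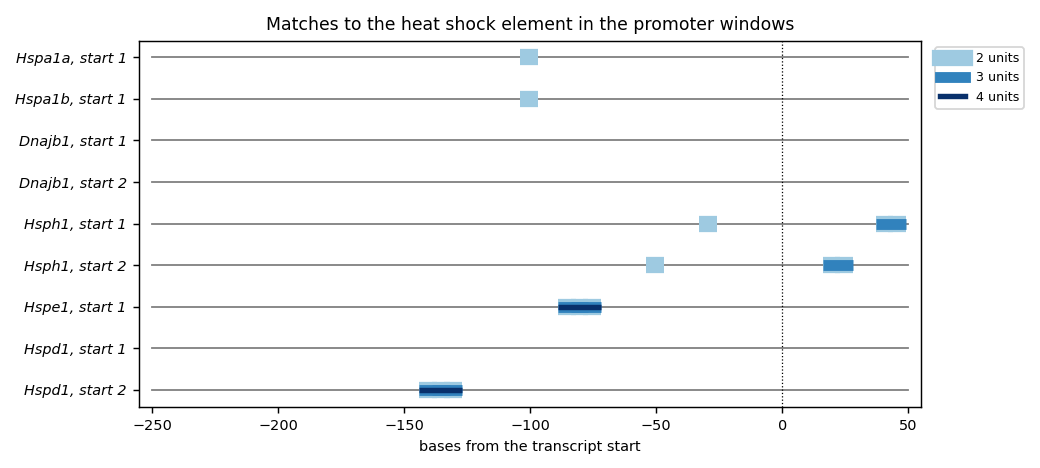
Matches to the heat shock element in the promoter windows of 6 members. The x axis gives bases from the transcript start, each line is 1 window (start 1 and start 2 are alternative annotated starts), and the shade gives the number of repeat units. The 4-unit match lies at -89 to -72 in the Hspe1 window and at -144 to -127 in the window of the second Hspd1 start.

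The abundant Hsp90 and Hsp70 genes differed between stages of the lineage. Hspa8 was higher in Neurog3-high than in trunk cells, Hsp90aa1 was higher in Chgb-high than in Neurog3-high cells, and Hsp90aa1, Hsp90ab1 and Hspa8 were all lower in Ins-high cells than in Chgb-high or Gcg-positive cells. Hspd1 and Hspe1 were highest in Cpa1-high cells, and Dnajb1 was highest in Csf1r-positive cells. The inducible genes Hspa1a and Hspa1b were sparse in every group. Together the 9 genes made up between 0.277% and 0.675% of the UMIs of a group, lowest in Ins-high cells of library 1 and highest in Cpa1-high cells of library 2.

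**Figure D2:**
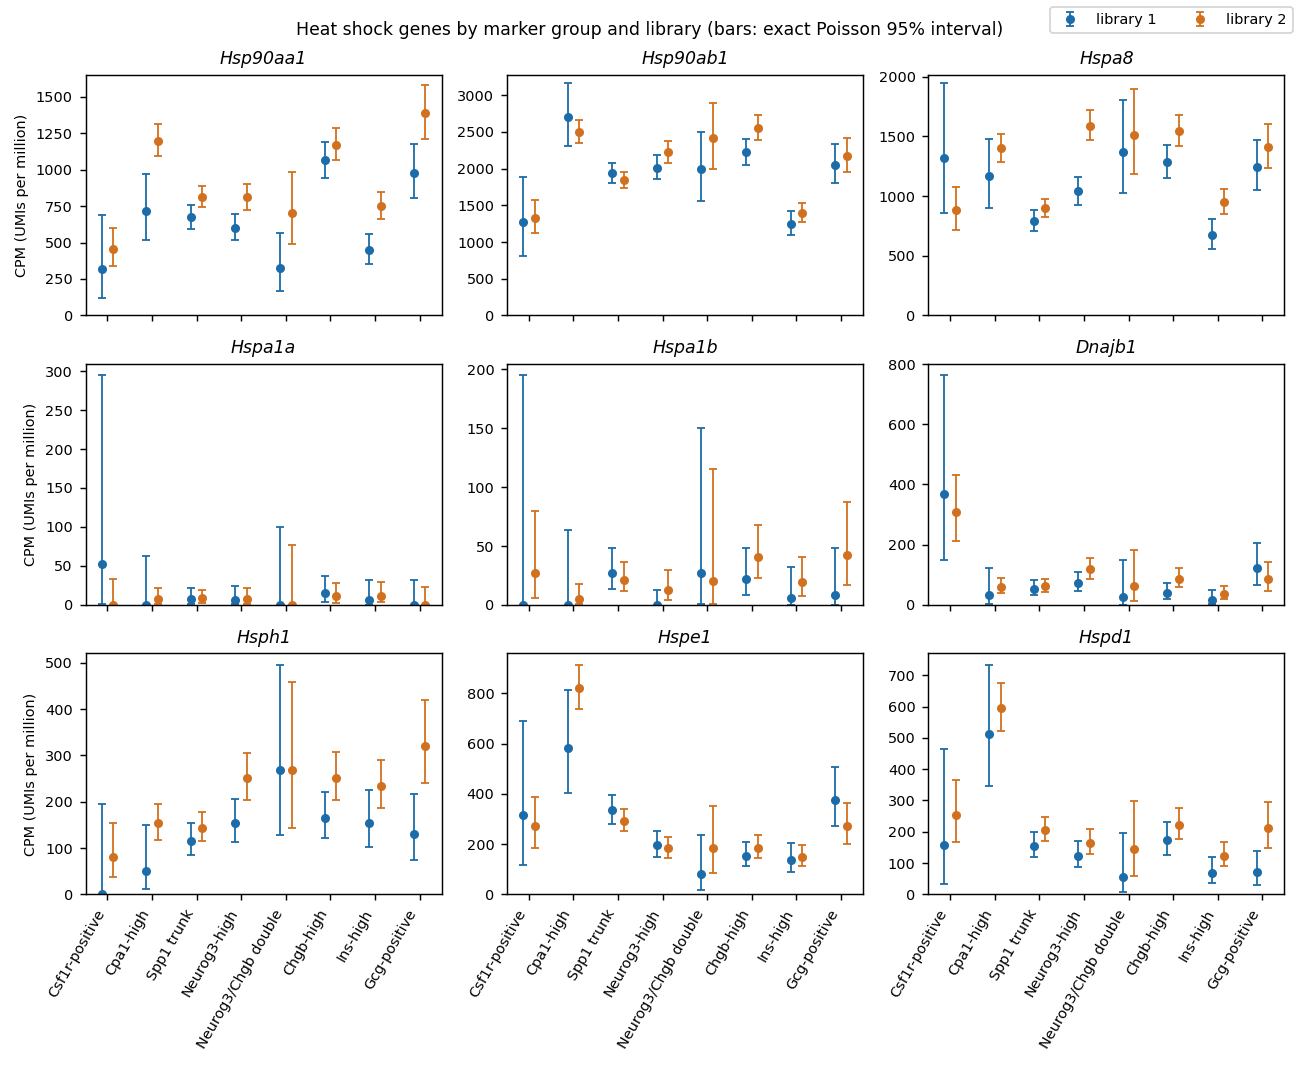
Level of each member (CPM, linear axis) in the 8 marker groups. Each point is the summed UMIs of 1 library and each bar its exact Poisson 95% interval, which covers counting error only. Hspe1 and Hspd1 stand highest in Cpa1-high cells of both libraries, Dnajb1 in Csf1r-positive cells, and Hsp90ab1 is low in Ins-high and Csf1r-positive cells.

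Differences were tested on UMIs summed per library and group, with library as a block, in 1 edgeR quasi-likelihood fit of the 5 groups with at least 10 cells in each library. An adjusted p (Benjamini-Hochberg over 9829 genes) below 0.05 made a call, and folds are given on the log2 scale with their standard error. Of the 9 members 8 passed the filter on low counts, and Hspa1a did not. The sums held 114560 to 605443 UMIs. No label states whether a library is 1 embryo or a pool, and the p-values measure only the spread between these samples.

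Hsp90aa1 (chr12:110690605-110702728, minus strand) encodes the stress-inducible Hsp90 alpha. Its level was 1063 and 1172 CPM in Chgb-high cells of library 1 and library 2, against 600.4 and 809 CPM in Neurog3-high cells. Both Chgb-high sums lay above both Neurog3-high sums. The fitted fold was 0.59 ± 0.14 (SE, edgeR adjusted p = 0.00141), higher in 2 of 2 libraries at 0.82 and 0.53. It was the only member called of 8 tested in that comparison, in which 10.8% of all genes were called in either direction, 4.42% higher and 6.42% lower. The call was lost with DESeq2, without the library block, with cells thinned to 1500 UMIs and in the fit that admits groups of at least 5 cells, with an adjusted p up to 0.153. In trunk cells Hsp90aa1 stood at 674 and 814 CPM, so that Neurog3-high cells at 600.4 and 809 CPM overlapped them, with a fitted fold of -0.07 ± 0.14.

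In Ins-high cells Hsp90aa1 was 448 and 751 CPM, against 1063 and 1172 CPM in Chgb-high cells and 978 and 1387 CPM in Gcg-positive cells. Neither comparison overlapped. It fell by 0.79 ± 0.15 against Chgb-high cells (edgeR adjusted p = 0.000106), by 1.25 in library 1 and 0.64 in library 2, and by 0.88 ± 0.15 against Gcg-positive cells (edgeR adjusted p = 3.13e-05), by 1.13 and 0.88 in the single libraries. Without the library block the adjusted p against Chgb-high cells was 0.0544. Gcg-positive and Chgb-high cells themselves gave a fold of 0.09 ± 0.14 with opposite signs in the 2 libraries. Ordered by the mean over libraries, Hsp90aa1 was highest in Gcg-positive cells (1183 ± 290 CPM, SD, n = 2) and lowest in Csf1r-positive cells (385 ± 96.6 CPM), and each of the 7 pairs of neighbours in the order overlapped over the libraries.

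Hsp90ab1 (chr17:45567775-45573271, minus strand) encodes the constitutive Hsp90 beta. It was 1251 and 1399 CPM in Ins-high cells, against 2225 and 2554 CPM in Chgb-high cells and 2051 and 2175 CPM in Gcg-positive cells, again with no overlap. The fold was -0.75 ± 0.11 against Chgb-high cells (edgeR adjusted p = 3.55e-07), with -0.83 and -0.87 in the single libraries. Against Gcg-positive cells it was -0.59 ± 0.11 (edgeR adjusted p = 0.000159), with -0.71 and -0.64 in the single libraries, and the adjusted p was 0.0575 in the fit that admits groups of at least 5 cells.

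Before hormone expression the differences in Hsp90ab1 were small. It was 1935 and 1848 CPM in trunk cells, 2014 and 2225 CPM in Neurog3-high cells and 2225 and 2554 CPM in Chgb-high cells, and neither step was called, with folds of 0.18 ± 0.10 and 0.09 ± 0.10. Its order ran Cpa1-high (2605 ± 145 CPM), Chgb-high, cells with both Neurog3 and Chgb, Neurog3-high, Gcg-positive, trunk (1892 ± 61.2 CPM), Ins-high (1325 ± 104 CPM) and Csf1r-positive (1301 ± 46.3 CPM; SD, n = 2 each). On 2 sums per group, 2 of 7 neighbouring pairs were separate over the libraries, Gcg-positive above trunk and trunk above Ins-high. The share of all genes that separate in this way is not given here. At 2000 UMIs per cell, 86.1% and 93.8% of Ins-high cells and 97.1% and 98.9% of Chgb-high cells had an Hsp90ab1 UMI.

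Hspa8 (chr9:40800984-40810087, plus strand) encodes the constitutive Hsc70. Its level was 1039.5 and 1591 CPM in Neurog3-high cells, against 792 and 899 CPM in trunk cells, with no overlap. The fold was 0.64 ± 0.12 (edgeR adjusted p = 0.000121), higher in 2 of 2 libraries at 0.39 and 0.82, so without library 2 the value was 0.39. The call was kept in 14 of 14 alternatives, with an adjusted p of at most 0.0325. Among these, the 1 with at least 20 cells per group repeated the main fit. Hspa8 was 1 of 2 members called of 8 tested, where 8.77% of all genes were called, 4.82% higher and 3.95% lower. At 2000 UMIs per cell, 77.0% and 91.7% of Neurog3-high cells had an Hspa8 UMI, against 72.6% and 76.6% of trunk cells. Exons of Hspa8 overlap the small nucleolar RNA genes Snord14c, Snord14d and Snord14e on the same strand.

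Chgb-high cells, at 1287 and 1549 CPM of Hspa8, overlapped Neurog3-high cells, with a fold of 0.04 ± 0.12. Ins-high cells were lower, at 677 and 951 CPM, against 1287 and 1549 CPM in Chgb-high cells and 1248 and 1412 CPM in Gcg-positive cells. The fold was -0.70 ± 0.13 against Chgb-high cells (edgeR adjusted p = 0.000158), with -0.93 and -0.70 in the single libraries. Against Gcg-positive cells it was -0.62 ± 0.14 (edgeR adjusted p = 0.00220), with -0.88 and -0.57. Both calls were lost without the library block and with lower marker thresholds, and the second also with DESeq2 and with groups of at least 5 cells, with an adjusted p up to 0.176 and 0.186. All 7 pairs of neighbours in the order of Hspa8 levels overlapped over the libraries, with trunk (845 ± 75.2 CPM) and Ins-high cells (814 ± 194 CPM; SD, n = 2 each) at its low end.

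Counted over the members, 3 of 8 were called lower and 0 higher in Ins-high than in Chgb-high cells, where 2.72% of all genes were called, 1.88% higher and 0.834% lower. In Ins-high against Gcg-positive cells 5 of 8 were lower and 0 higher, where 3.15% of all genes were called, 2.01% higher and 1.14% lower. The members' median fold was -0.77 and -0.75, beside -0.0034 and 0.04 over all genes. The comparisons share the Ins-high sums and are given side by side only. Ins1, Ins2 and Gcg themselves took 3.79% and 4.48% of the UMIs in Ins-high cells, 0.0342% and 0.0219% in Chgb-high cells and 1.49% and 2.12% in Gcg-positive cells. In Gcg-positive against Chgb-high cells 0 of 8 members were called by edgeR, where 1.37% of all genes were called, 0.661% higher and 0.712% lower. There 1 member, Hspe1, had an unadjusted p below 0.05, DESeq2 called 0, and edgeR with DESeq2's size factors called 1.

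**Figure D3:**
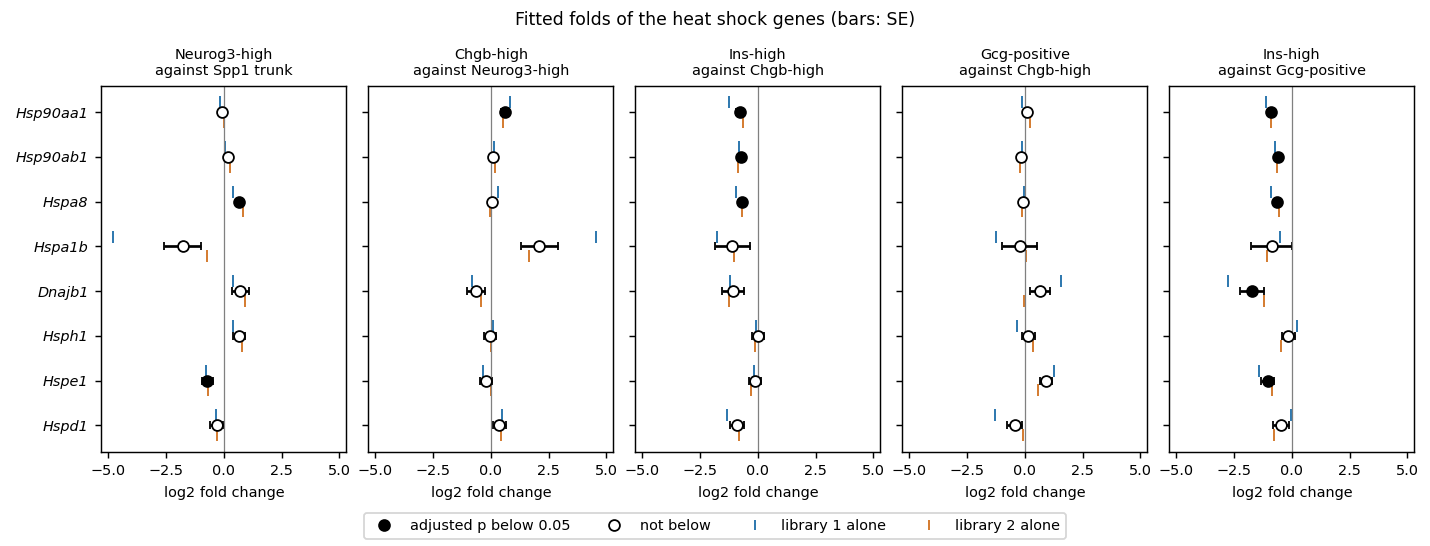
Fitted log2 fold changes of the 8 tested members in 5 comparisons, with the group named first over the group named second. Circles are the edgeR estimate with its SE, filled where the adjusted p was below 0.05, and ticks are the folds of the single libraries. Hsp90aa1, Hsp90ab1 and Hspa8 lie left of 0 in both comparisons of Ins-high cells, with both libraries on the same side.

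Hspa1a (chr17:34969190-34972156) and Hspa1b (chr17:34956436-34959238), both on the minus strand, encode the inducible Hsp70. With transcripts 95.1% identical over the aligned bases, the split of their UMIs was taken as uncertain, so they were also summed. How far their UMIs can be told apart was not examined. In library 1, 38 of 516 cells (7.36%) had a UMI of either gene and 29 of these had exactly 1, and in library 2 the numbers were 95 of 1077 cells (8.82%) and 76. The highest count in a single cell was 4 UMIs in library 1 and 7 UMIs in library 2. Shares of cells in the 5 tested groups lay between 2.44% in Neurog3-high cells of library 1 and 13.9% in Chgb-high cells of library 2.

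Free RNA in droplets gives UMIs of genes that a cell does not express. Of trunk cells 13.3% and 15.2% had an Ins2 UMI and 27.6% and 12.3% had a Gcg UMI. The grouping rule caps these cells at 9 UMIs of Ins1 plus Ins2 and 2 of Gcg, so the shares come from selected cells. Those hormone genes are far more abundant in the suspension, so their shares are no measure of free Hspa1a or Hspa1b RNA, and no group here can be taken to lack the inducible Hsp70. The part of free RNA in these sparse counts was not tested, and no order of groups is read from them. Trunk cells had a median of 3704 and 2675 UMIs, and Neurog3-high cells 3187.5 and 2889.5 UMIs.

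The summed level of both genes was 6.86 and 20.04 CPM in Neurog3-high cells (2 and 8 UMIs), against 34.6 and 29.7 CPM in trunk cells (14 and 18 UMIs), and it was 36.8 and 51.9 CPM in Chgb-high cells (10 and 19 UMIs). Hspa1b alone was tested and not called in any of the 5 comparisons. Its unadjusted edgeR p was 0.0287 in Neurog3-high against trunk cells and 0.0115 in Chgb-high against Neurog3-high cells, and above 0.05 in the other comparisons. Its fold in Chgb-high against Neurog3-high cells was 2.09 ± 0.80 (edgeR adjusted p = 0.0865), with 0 UMIs in Neurog3-high cells of library 1. An exon of Hspa1a overlaps Gm20481 on the other strand.

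Dnajb1 (chr8:83608193-83612653, plus strand) encodes an inducible Hsp40 that stimulates Hsp70. It was highest in Csf1r-positive cells, at 369.8 and 308 CPM, against 54.3 and 62.8 CPM in trunk cells. With 7 and 34 UMIs in Csf1r-positive cells the exact Poisson 95% intervals were 149 to 762 and 214 to 431 CPM, above those of trunk cells at 34.0 to 82.2 and 44.4 to 86.1 CPM. In a fit added after the data were seen, which admits groups of at least 5 cells, the fold was 2.27 ± 0.47 (edgeR adjusted p = 5.75e-05), higher in 2 of 2 libraries. A Dnajb1 UMI was found in 71.4% and 57.1% of Csf1r-positive cells, against 16.2% and 13.7% of trunk cells, and at 2000 UMIs per cell in 60% and 30.8% of 5 and 26 Csf1r-positive cells, against 7.37% and 11.7% of 95 and 154 trunk cells. In that fit 1 of 7 members was higher and 2 lower, where 5.04% of all genes were called higher and 5.03% lower, and the median fold of all genes was -0.31. The lower members were Hsp90aa1, at 317 and 454 CPM in Csf1r-positive cells and 674 and 814 CPM in trunk cells (-1.01 ± 0.29, edgeR adjusted p = 0.00733), and Hsp90ab1, at 1268 and 1333 CPM in Csf1r-positive cells and 1935 and 1848 CPM in trunk cells (-0.68 ± 0.21, edgeR adjusted p = 0.0134).

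With lower marker thresholds, where 1 Csf1r UMI suffices, Dnajb1 remained called (1.40 ± 0.40, edgeR adjusted p = 0.0276), while Hsp90aa1 and Hsp90ab1 did not pass (adjusted p = 0.492 and 0.945). Immediate-early genes, which respond within minutes to stimulation and to cell dissociation, summed to 10884 and 12038 CPM in Csf1r-positive cells, against 3877 and 5480 CPM in trunk cells, over a list of 18 genes. Their part in the Dnajb1 result was not tested.

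Among the endocrine groups Dnajb1 was 17.2 and 36.6 CPM in Ins-high cells, on 3 and 13 UMIs, against 122 and 84.8 CPM in Gcg-positive cells. The fold was -1.73 ± 0.51 (edgeR adjusted p = 0.0410), with -2.76 and -1.19 in the single libraries. This call was lost in 9 of 14 alternatives, with an adjusted p up to 0.685. In Neurog3-high cells Dnajb1 was 72.0 and 118 CPM, above both trunk sums, but its fold of 0.71 ± 0.35 was not called (edgeR adjusted p = 0.252).

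Hsph1 (chr5:149614287-149636376, minus strand) encodes the Hsp110 protein that recharges Hsp70. It was 154 and 251 CPM in Neurog3-high cells, against 116 and 144 CPM in trunk cells, a fold of 0.65 ± 0.25 that was not called (edgeR adjusted p = 0.108). Without cells carrying 2 or more UMIs of 10 mitosis genes, the fold was 1.08 ± 0.34 and was called (edgeR adjusted p = 0.0307). Its levels in the later groups overlapped one another, with 166 and 251 CPM in Chgb-high, 155 and 234 CPM in Ins-high and 131 and 321 CPM in Gcg-positive cells. Unlike Hsp90aa1, Hsp90ab1 and Hspa8, Hsph1 had a fold of 0.00026 ± 0.27 in Ins-high against Chgb-high cells, although the difference between these members' folds was not tested.

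Hspd1 (chr1:55077835-55088243, minus strand) encodes Hsp60, the barrel of the mitochondrial chaperonin, and Hspe1 (chr1:55088132-55091307, plus strand) encodes Hsp10, its lid. They lie head to head, and their exons overlap on opposite strands. The 4-unit match shown above lies upstream of the Hspe1 start and of the second annotated start of Hspd1. The window of the first annotated Hspd1 start held no match and shares 4 bases with the Hspe1 window. Whether counting used strand is not given in the sources used here, so UMIs from the overlap cannot be told apart.

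Hspd1 was 514 and 596 CPM in Cpa1-high cells, against 155 and 206 CPM in trunk cells, and Hspe1 was 583 and 822 CPM in Cpa1-high cells, against 336 and 292 CPM in trunk cells. Neither gene overlapped between these groups, and for both the Cpa1-high sums were separate from the next group in the order. Each group has only 2 sums, and library 1 of Cpa1-high is 9 cells. The share of all genes that separate in this way is not given here. Cpa1-high cells of library 1 held 30 UMIs of Hspd1 and 34 of Hspe1. In the added fit that admits groups of at least 5 cells, the folds were 1.71 ± 0.31 for Hspd1 (edgeR adjusted p = 3.68e-06) and 1.35 ± 0.28 for Hspe1 (edgeR adjusted p = 7.87e-05). Both stayed called with lower marker thresholds, where Cpa1 at 3 UMIs suffices, at 1.60 ± 0.27 and 1.38 ± 0.25.

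At 2000 UMIs per cell, 66.7% and 64.4% of Cpa1-high cells had an Hspd1 UMI, against 24.2% and 31.2% of trunk cells. The share without thinning was 77.8% and 80.2% in Cpa1-high cells, against 39.0% and 41.2% in trunk cells. In all 4 of 7 members were higher and 0 lower in Cpa1-high cells in the added fit, where 4.16% of all genes were called higher and 3.41% lower. The other members were Hspa8, at 1165 and 1401 CPM in Cpa1-high cells and 792 and 899 CPM in trunk cells (0.72 ± 0.21, edgeR adjusted p = 0.0120), and Hsp90ab1, at 2707 and 2503 CPM in Cpa1-high cells and 1935 and 1848 CPM in trunk cells (0.56 ± 0.18, edgeR adjusted p = 0.0358). Cells with 2 or more UMIs of 10 mitosis genes made up 77.8% and 86.0% of Cpa1-high cells, against 41.9% and 43.1% of trunk cells, and Cpa1-high cells were deeper, with a median of 6209 and 4386.5 UMIs against 3704 and 2675. The part of cycling and depth in the Cpa1-high results was not tested.

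Hspe1 was also called lower in Neurog3-high than in trunk cells and in Ins-high than in Gcg-positive cells. It was 196 and 183 CPM in Neurog3-high cells, against 336 and 292 CPM in trunk cells, and fell by 0.71 ± 0.22 (edgeR adjusted p = 0.0317), with -0.78 and -0.67 in the single libraries. The call was lost in 10 of 14 alternatives, with an adjusted p up to 0.284, including the one without cycling cells (-0.62 ± 0.28, adjusted p = 0.199). Cycling cells made up 30.5% and 23.5% of Neurog3-high cells. In Ins-high cells Hspe1 was 138 and 149 CPM, against 375 and 273 CPM in Gcg-positive cells, a fold of -1.04 ± 0.28 (edgeR adjusted p = 0.0169) that was lost in 6 of 14 alternatives. Against Chgb-high cells, at 154 and 186 CPM, Gcg-positive cells gave 0.91 ± 0.26 (edgeR adjusted p = 0.0660).

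Hspd1 was not called between endocrine stages in the main fit. It was 124 and 165 CPM in Neurog3-high, 173 and 221 CPM in Chgb-high, 68.9 and 124 CPM in Ins-high and 69.8 and 212 CPM in Gcg-positive cells. The main edgeR fit and DESeq2 gave 0 calls in the 5 comparisons, with an unadjusted edgeR p below 0.05 in 1 of them. The largest size was in Ins-high against Chgb-high cells, -0.91 ± 0.31 (edgeR adjusted p = 0.106). Across single cells at 2000 UMIs, Spearman's rho of Hspe1 with Hspd1 within a group and library ranged from -0.14 to 0.10 over the 10 tested sums, which at these low counts is no finding. The other pairs of 6 members had medians between -0.02 and 0.13.

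Other chaperone genes were taken from 5 lists. Of 39 cytosolic co-chaperones and further heat shock genes, 35 were tested. Neurog3-high cells had 1 higher than trunk cells, the Hsp40 gene Dnaja1, at 374 and 436 CPM in Neurog3-high cells and 220 and 317 CPM in trunk cells (0.61 ± 0.20, edgeR adjusted p = 0.0362), and 1 lower, the immunophilin gene Fkbp4, named after its value was seen (-0.88 ± 0.19). Chgb-high cells had 4 higher than Neurog3-high cells and 0 lower, where 4.42% of all genes were called higher and 6.42% lower. Hspa4l, an Hsp110 relative of Hsph1, was 173 and 164 CPM in Chgb-high cells, against 30.9 and 30.1 CPM in Neurog3-high cells (2.37 ± 0.38, edgeR adjusted p = 1.67e-06). Hsph1 in the same comparison gave -0.04 ± 0.25. In Ins-high cells 1 was lower than in Chgb-high cells, Stip1, which links Hsp70 to Hsp90, at 115 and 248 CPM in Ins-high cells and 346 and 358 CPM in Chgb-high cells (-0.80 ± 0.24, edgeR adjusted p = 0.0436). The other 2 comparisons gave 0 edgeR calls in this list, with 1 and 4 genes at an unadjusted p below 0.05. There 1.37% and 3.15% of all genes were called. Over all genes 8.77% were called in Neurog3-high against trunk cells and 2.72% in Ins-high against Chgb-high cells.

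Of 14 genes of the cytosolic chaperonin CCT and of prefoldin, Cct2 was lower in Chgb-high cells, at 272 and 276 CPM, against 453 and 433 CPM in Neurog3-high cells (-0.77 ± 0.20, edgeR adjusted p = 0.00387). It was the single call of this list in the 5 comparisons, and 6.42% of all genes were called lower in that one. Of 13 tested mitochondrial chaperones and proteases, 0 were called by edgeR in any of the 5 comparisons, with 0 to 2 at an unadjusted p below 0.05. Between 1.37% and 10.8% of all genes were called in these comparisons. For lists this short, 1 call or 0 calls is therefore no finding about the list. In this list Hspa9, the mitochondrial Hsp70, was 377 and 435 CPM in Cpa1-high cells and 199.9 and 239 CPM in trunk cells. Hspa9 was named outside the rule for list genes. No fold is given for it there, nor the levels of the other genes of this list.

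Most listed chaperones and folding enzymes of the endoplasmic reticulum (ER) were higher in Ins-high cells, where Hsp90aa1, Hsp90ab1 and Hspa8 were lower. The difference between the folds of the ER genes and of these 3 members was not tested. Of 13 ER chaperones and folding enzymes 11 were higher and 0 lower than in Chgb-high cells, where 1.88% of all genes were called higher, and the median log2 fold was 1.60 against -0.0034 over all genes. Against Gcg-positive cells 9 of 13 were higher and 0 lower, where 2.01% of all genes were called higher, and the median was 1.55 against 0.04 over all genes. Hspa5 (BiP, the ER counterpart of Hspa8) was 2421 and 2845 CPM in Ins-high cells, against 1151 and 716 CPM in Chgb-high cells (1.60 ± 0.15, edgeR adjusted p = 1.55e-12) and 567 and 933 CPM in Gcg-positive cells (1.87 ± 0.17, edgeR adjusted p = 8.01e-14). Hsp90b1 (Grp94, the ER Hsp90) was 775 and 1213 CPM in Ins-high cells, against 224 and 336 CPM in Chgb-high cells (1.93 ± 0.18, edgeR adjusted p = 7.31e-13). The lectin chaperone Calr was 3070 and 2876 CPM in Ins-high cells, against 872 and 836 CPM in Chgb-high cells (1.90 ± 0.12, edgeR adjusted p = 1.19e-20). The disulfide isomerase Pdia4 was 602.5 and 788 CPM in Ins-high cells, against 209 and 188 CPM in Gcg-positive cells (1.92 ± 0.24, edgeR adjusted p = 8.84e-09).

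As a ratio of UMIs, Hspa8 over Hspa5 was 0.280 and 0.334 in Ins-high cells, against 1.12 and 2.16 in Chgb-high cells and 2.20 and 1.51 in Gcg-positive cells. Hsp90ab1 over Hsp90b1 was 1.61 and 1.15 in Ins-high cells, against 9.92 and 7.60 in Chgb-high cells and 6.91 and 4.49 in Gcg-positive cells. Both ratios were lowest in Ins-high cells among the 8 groups in both libraries. Earlier, in Chgb-high against Neurog3-high cells, Hspa5 was higher (0.82 ± 0.17, edgeR adjusted p = 0.000175) while Hspa8 gave 0.04 ± 0.12. In that comparison 2 of 13 ER genes were higher and 1 lower, where 4.42% of all genes were called higher and 6.42% lower. In Neurog3-high against trunk cells Hspa5 gave -0.24 ± 0.17 and was not called, whereas Calr was higher (0.58 ± 0.12, edgeR adjusted p = 0.000317).

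**Figure D4:**
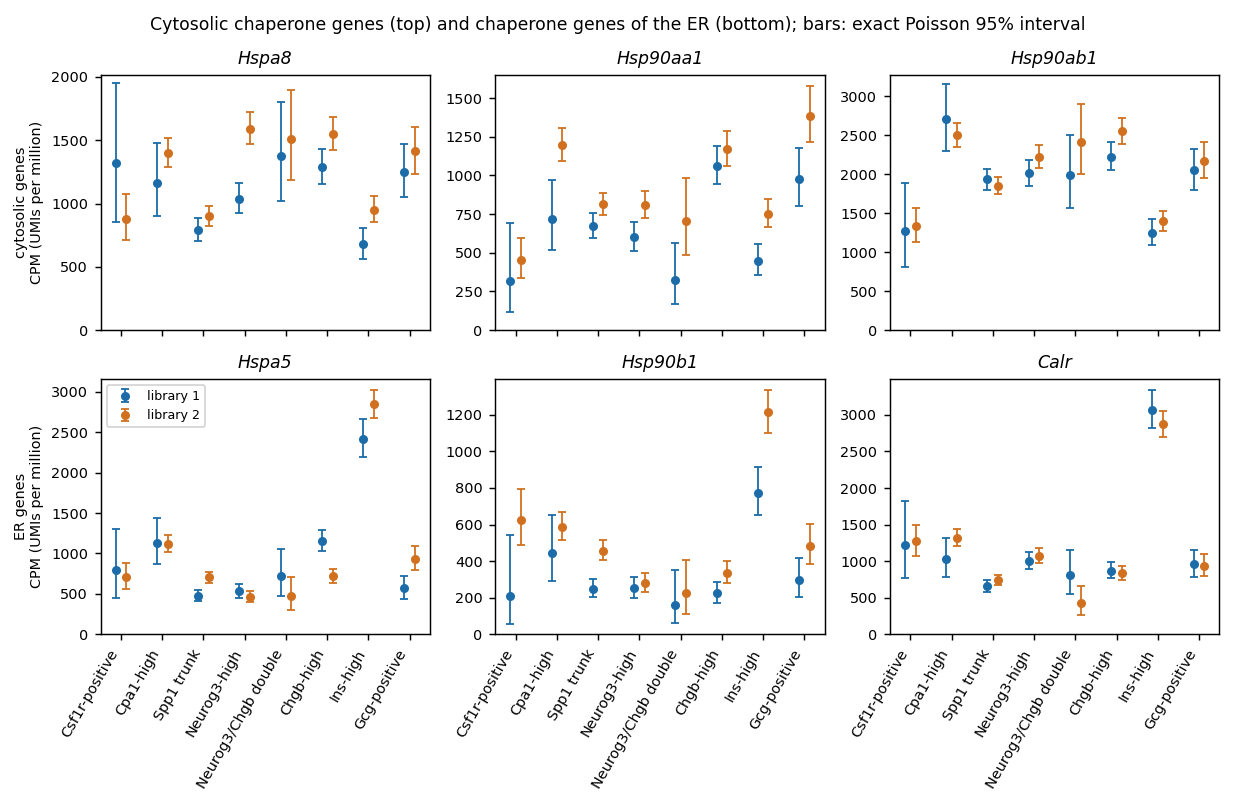
Levels (CPM, linear axis) of the cytosolic genes Hspa8, Hsp90aa1 and Hsp90ab1 in the upper row and of the ER genes Hspa5, Hsp90b1 and Calr in the lower row, by marker group. Points are the summed UMIs of 1 library with the exact Poisson 95% interval. In Ins-high cells the ER genes stand at their highest level of the 8 groups in both libraries, while Hsp90ab1 is at 1251 and 1399 CPM.

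Within each library the summed immediate-early list was lower in Neurog3-high than in trunk cells, lower again in Chgb-high cells and lowest of these in the hormone groups. It was 3877 and 5480 CPM in trunk, 2896 and 3893 CPM in Neurog3-high, 2814 and 3101 CPM in Chgb-high, 1555 and 2299 CPM in Ins-high and 1493 and 1563 CPM in Gcg-positive cells. Of 17 tested genes 8 were lower and 1 higher in Neurog3-high than in trunk cells, where 3.95% of all genes were called lower and 4.82% higher, with Fos at 106 and 311 CPM in Neurog3-high cells and 405 and 752 CPM in trunk cells (-1.46 ± 0.21, edgeR adjusted p = 2.18e-07). The gene that rose was the antiproliferative gene Btg2 (1.57 ± 0.17, edgeR adjusted p = 2.20e-11). Hspa8 was higher in the same comparison of group sums, and its relation to the 8 lower genes was not tested. The lower sum in Chgb-high than in Neurog3-high cells was not shared by most of the tested genes. Of 17 genes 8 had a negative fold there, and the median fold was 0.04. Btg2 (-0.98 ± 0.17) and Jun (-0.71 ± 0.20) were the 2 called lower, and Klf2 (2.73 ± 0.66) the 1 called higher. Over all genes 4.42% were called higher and 6.42% lower. In Gcg-positive against Chgb-high cells 5 of 17 were lower and 0 higher, where 0.712% of all genes were called lower, among them Ier2 (-1.50 ± 0.34, edgeR adjusted p = 0.00507) and Jund (-1.05 ± 0.24, edgeR adjusted p = 0.00603). In Ins-high against Chgb-high cells 2 of 17 were lower and 0 higher, where 0.834% of all genes were called lower. The part of the dissociation response in the differences of the members was not tested.

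**Figure D5:**
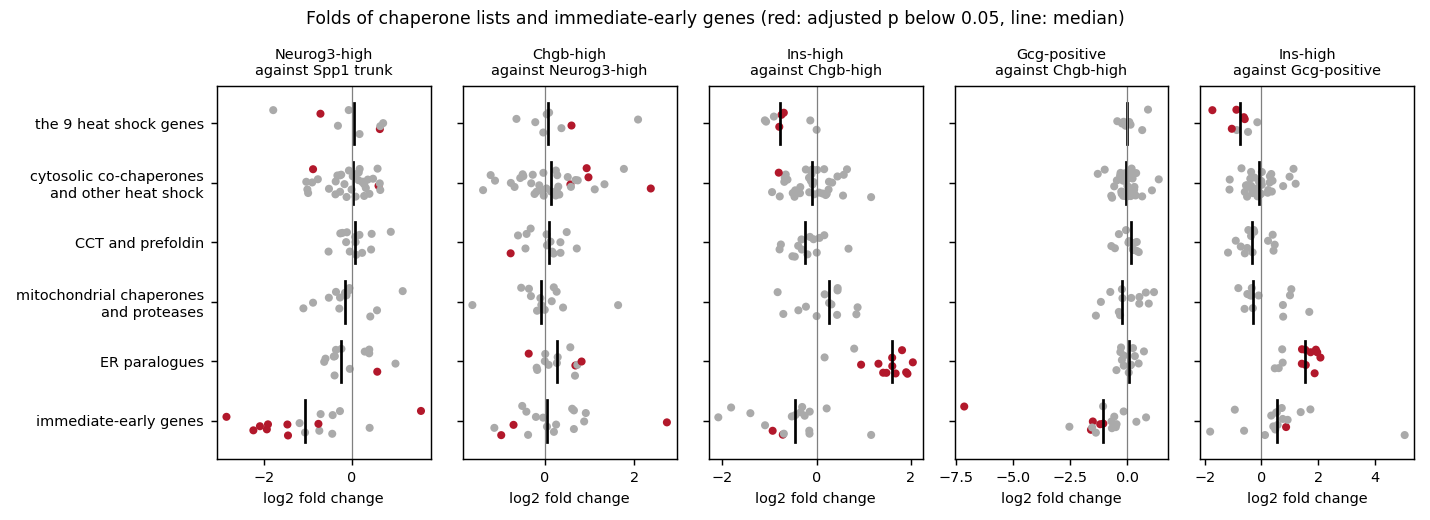
Log2 fold changes of the tested genes of the 9 heat shock genes and of 5 further lists in 5 comparisons, with the group named first over the group named second. Each point is 1 gene, red where the edgeR adjusted p was below 0.05, and the black line is the list's median. In Ins-high cells the ER list lies right of 0 and the heat shock genes lie mostly left of it, and the x axes differ between panels.

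The libraries differed as well. Hsp90aa1, Hspa8, Hsph1 and Hspd1 were higher in library 2 than in library 1 in 5 of 5 tested groups, with a median ratio of 1.35, 1.20, 1.52 and 1.34. Hspe1 was higher in library 2 in 2 of 5 groups, with a median ratio of 0.935. The main edgeR folds were fitted with library as a block, whereas the orders of the groups and the statements on overlap set the sums of both libraries side by side. Statements on overlap rest on 2 sums per group, and the share of all genes without overlap is not given here.

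Likeness of pattern was measured as Pearson correlation of log2 CPM, centred per library, over the 10 sums among 4817 genes of at least 50 CPM. The sums share 2 libraries and neighbouring stages, so the values are a description only. The genes most like Hspa8 were Lpcat3 (0.96), Pcm1 (0.95) and Tmod3 (0.94). Those most like Hsp90ab1 were Il1rap (0.94), Msi1 (0.92) and Abca1 (0.92), and those most like Hspd1 were Ctxn1 (0.93), Uhrf2 (0.92) and Rtf1 (0.92). Hspa1a lay under 50 CPM and was not ranked.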

How the data were processed

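The authors deposited raw UMI counts per gene and cell, 1 table per library, aligned to GRCm38 per the submitters' processing notes. The sources used here name no aligner, counter, annotation or strand setting, and every cell column was used. Cells needed 1000 UMIs, 500 genes and at most 20% mitochondrial UMIs. Scrublet (scanpy 1.11.5) removed 12 and 4 doublets. Counts summed per library and marker group were fitted in edgeR 4.0.16 (R 4.3.3) with TMM scaling, its filter on low counts, and group plus library as terms (4 residual degrees of freedom). Library is the block because both groups of each comparison come from the same library. Levels are plain CPM, single-library folds add 1 CPM, and the SE is the absolute fold over the square root of F. Groups under 10 cells in a library were described with exact Poisson intervals, and shares of cells have exact (Clopper-Pearson) intervals. Intervals cover counting error only. Code was tested on simulated data. Members, lists and thresholds were chosen with earlier results of these data known. List genes were named by lowest adjusted p, at most 3 per direction and comparison, with the same sign in both libraries. Fkbp4 and Hspa9 were named outside this rule. Positions are from the GENCODE annotation of GRCm38.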

Additional observations from a re-analysis of the deposited data

How the results depend on the processing

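For the 11 called folds of members, 14 alternatives with a test and the 2 single libraries gave 176 values, of which 131 kept the direction and the call or lay within the spread between libraries, 37 kept the direction but not the call, 8 moved further and 0 reversed. The alternative with at least 20 cells per group kept the same 5 groups and repeated the main fit. Its agreement was fixed in advance, here and in the counts out of 14 alternatives above. Single libraries carry no test, so their values cannot keep or lose a call. Called by number, Neurog3-high against trunk cells gave 2 members, and 1 with no filter on low counts, DESeq2, doublets kept, thinning to 1500 UMIs, lower thresholds, higher thresholds or groups of at least 5 cells. The count was also 2 without cycling cells and with thresholds on UMIs scaled to 3000. There both members were higher, whereas the main fit had 1 higher and 1 lower. Chgb-high against Neurog3-high cells gave 1, but 0 with DESeq2, thinning or groups of at least 5 cells and 2 with thresholds on UMIs scaled to 3000. Ins-high against Chgb-high cells gave 3, but 4 with library totals alone and 2 with lower thresholds. Gcg-positive against Chgb-high cells gave 1 with DESeq2's size factors. Ins-high against Gcg-positive cells gave 5, but 2 with DESeq2 or lower thresholds, 3 without cycling cells or with thinning and 1 with groups of at least 5 cells. That comparison gave 4 with no filter on low counts, higher thresholds or at most 10% mitochondrial UMIs. Cpa1-high and Csf1r-positive cells could not be fitted with at least 10 cells per group, so of the other settings listed here lower thresholds alone gave a value. Against trunk cells they gave 4 and 3 members with groups of at least 5 cells, and 4 and 1 with lower thresholds.

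Without the replicate block, which pairs groups of the same library, the calls were 1 in Neurog3-high against trunk cells, 0 in Chgb-high against Neurog3-high cells, 1 in Ins-high against Chgb-high cells (3 with it) and 2 in Ins-high against Gcg-positive cells. DESeq2 called 303 genes in Neurog3-high against trunk cells where edgeR called 862, 497 against 1065 in Chgb-high against Neurog3-high cells, 108 against 267 in Ins-high against Chgb-high cells, 47 against 135 in Gcg-positive against Chgb-high cells, and 148 against 310 in Ins-high against Gcg-positive cells. Leaving out a library leaves 1 sum per group, so single libraries gave values with no test. With library totals alone, Ins-high against Chgb-high cells had 154 genes higher and 132 lower (185 and 82 with TMM), with a median fold of all genes of -0.11, and Chgb-high against Neurog3-high cells had 537 higher and 544 lower (434 and 631 with TMM). The causes were not tested. Low counts limit Hspa1a, Hspa1b and Dnajb1.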

Other observations

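Cells that met no marker rule, 157 in library 1 and 322 in library 2, had 43.8 and 58.7 CPM of Hspa1a plus Hspa1b, and the cell with the highest count of these genes in each library was among them. Hsp90ab1 was 2106 and 1929 CPM there, and Hspa8 was 1351 and 1334 CPM. Their median depth was 2463 and 2508 UMIs.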
